A study of Bos taurus with 6 samples.

Results

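The genes described here are 8 small nuclear RNA (snRNA) genes of cattle whose annotated length is that of U1 snRNA. They are LOC112446509, LOC112442818, LOC112443041, LOC112446128, LOC107132278, LOC112446130, LOC112442784 and LOC112443327. They were selected by name from 24 snRNA genes of that length in the count files, and the RefSeq gene table of the assembly ARS-UCD2.0 holds 31 such genes, called U1-length genes here. The count files hold 280 snRNA genes among 23015 rows. The 8 genes were chosen with their counts, and the difference of these counts between the groups, already known. They are also the first 8 of the 24 in the row order of the deposited files, at rows 107 to 327. That order followed the separation of the groups. In the first 1000 rows the normalized counts of the high-NFMP and the low-NFMP steers did not overlap in 993 rows, and in the last 1000 rows they overlapped in all. The difference between the groups was therefore fixed by the choice of the 8 genes, and their values are a description with no test.

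U1 snRNA is the RNA of the U1 small nuclear ribonucleoprotein (snRNP), which recognises the 5′ splice site of a pre-mRNA by base pairing and starts the assembly of the spliceosome. Mammalian genomes hold many near-identical U1 genes and pseudogenes. RNA polymerase II transcribes the active genes with the SNAPc complex, the Integrator complex cuts the 3′ end, and the mature RNA has a ring of Sm proteins and no poly(A) tail. The RefSeq table gives these genes as snRNA without a family name, so they are called by their length and not as U1 genes.

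The libraries came from longissimus thoracis muscle of Hanwoo (Korean native cattle) steers that were fed commercial feeds. The high-NFMP group, with a high number of fine marbling particles (NFMP, small flecks of fat within the muscle), held steers 3-8, 10-8 and 10-9, aged 32.5, 33.8 and 34.5 months. The low-NFMP group held steers 3-1, 3-3 and 10-16, aged 37.8, 33.7 and 35.4 months. Each library was made with a 3′ mRNA kit, in which an oligo-dT primer starts the cDNA, and the counts of the 6 libraries summed to between 16283873 and 17192750. A piece of whole muscle holds fibres, fat cells, vessels and connective tissue, and fewer cells of a type and less RNA per cell cannot be told apart in it. All 8 skeletal muscle markers were detected in it, with titin (TTN) the most abundant, and their summed normalized count was 0.995 times as high in the high-NFMP as in the low-NFMP group.

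The 8 genes had low counts in all libraries, between 9 and 144 reads per gene and library. The kit starts from a poly(A) tail, which mature U1 snRNA lacks. These counts and their sums may therefore not follow the amount of mature RNA, which was not measured. Counts of near-identical genes are uncertain one by one, because the methods of the study describe counts from both unique and multiple alignments and a read that fits several copies could be given to any of them. All 8 genes have the same annotated length, so their counts are set side by side directly. Normalized counts are counts divided by the TMM-scaled size of the library and multiplied by the mean of these sizes.

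Of the 8 genes, 3 lie in a row of U1-length snRNA genes. In the RefSeq table, with tRNA genes left aside, LOC112446125, LOC112446128, LOC107132278, LOC112446129 and LOC112446130 follow one another, and LOC112446130 is followed by HJV, the gene of the BMP co-receptor hemojuvelin. LOC112446128 had 123, 86 and 103 counts in high-NFMP steers 3-8, 10-8 and 10-9 and 42, 25 and 54 counts in low-NFMP steers 3-1, 3-3 and 10-16. LOC107132278 had 132, 81 and 122 counts in the high-NFMP steers and 51, 35 and 50 counts in the low-NFMP steers, in the same order of steers. LOC112446130 had 144, 85 and 105 counts against 24, 23 and 45 counts. In these 3 genes steer 3-8 was the highest and steer 3-3 the lowest, and the groups did not overlap. The normalized count of LOC112446128 was 107.8 ± 15.1 in the high-NFMP and 39.3 ± 15.7 in the low-NFMP group (SD, n = 3 each), a log2 fold change of 1.46 with a standard error (SE) of 0.34. LOC107132278 had 115.4 ± 22.7 and 43.9 ± 10.0 normalized counts, and its log2 fold change of 1.39 (SE 0.31) was the smallest of the 8. LOC112446130 had 115.2 ± 27.1 and 29.9 ± 13.5 normalized counts, and its log2 fold change of 1.95 (SE 0.36), a fold change of 3.86, was the largest.

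LOC112442784 and LOC112442818 lie within TEX14, a gene of the intercellular bridges of germ cells, and LOC112442818 also lies within RAD51C, a gene of homologous recombination. LOC112442784 had 124, 75 and 96 counts in the high-NFMP steers and 35, 25 and 43 counts in the low-NFMP steers. LOC112442818 had 82, 60 and 59 counts against 28, 17 and 26 counts. In both genes steer 3-8 was the highest, steer 3-3 was the lowest and the groups did not overlap. The normalized count of LOC112442784 was 101.8 ± 21.7 against 33.4 ± 10.1 (SD, n = 3 each), a log2 fold change of 1.61 (SE 0.34). That of LOC112442818 was 69.7 ± 12.2 against 22.9 ± 6.24, a log2 fold change of 1.60 (SE 0.37).

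The other 3 genes lie apart from each other. LOC112443327 follows EAPP, the gene of a phosphoprotein that binds E2F factors, and had 126, 74 and 90 counts in the high-NFMP steers and 37, 19 and 35 counts in the low-NFMP steers. LOC112446509 had 64, 41 and 49 counts against 17, 12 and 17 counts. LOC112443041, which overlaps part of NDUFAF2, an assembly factor of respiratory complex I, had 44, 43 and 45 counts against 19, 9 and 22 counts. Steer 3-3 was again the lowest in these genes and the groups did not overlap, and in LOC112443041 the normalized count was highest in steer 10-8 instead of 3-8. The log2 fold change was 1.76 (SE 0.36) for LOC112443327, from 100.1 ± 24.3 against 29.4 ± 10.3 normalized counts (SD, n = 3 each). It was 1.84 (SE 0.41) for LOC112446509, from 53.2 ± 10.3 against 14.8 ± 3.27. It was 1.49 (SE 0.44) for LOC112443041, from 45.8 ± 1.71 against 16.2 ± 7.14, the smallest SD of the 8 genes in the high-NFMP group.

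**Figure D1:**
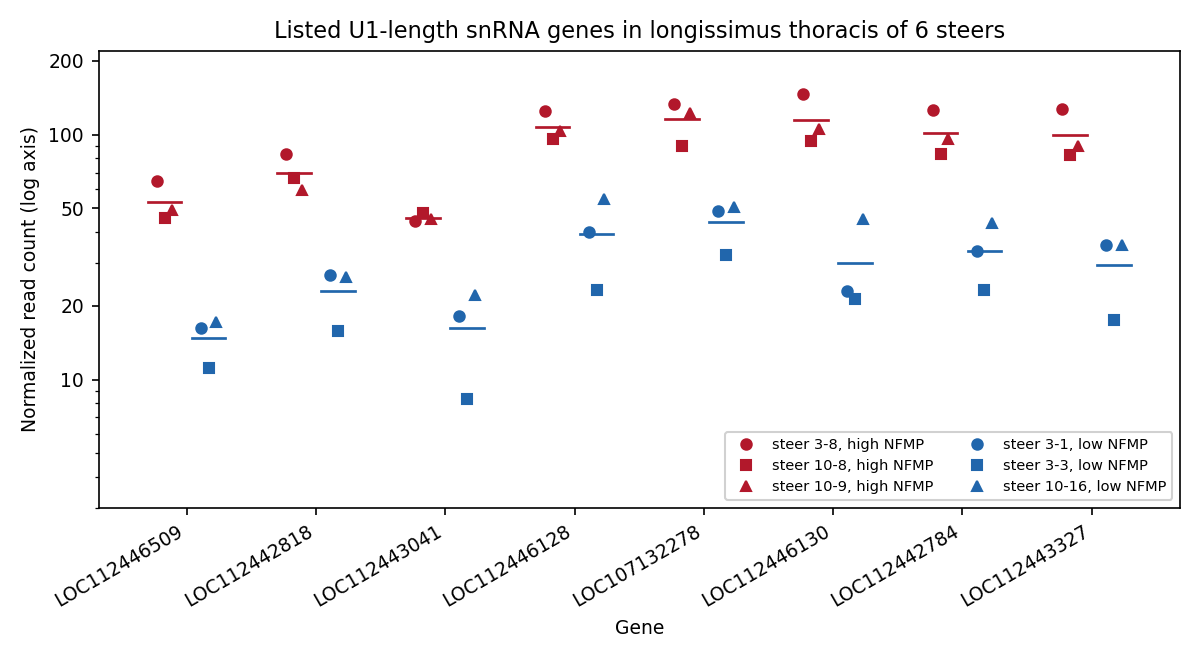
Normalized read count (log axis) of each of the 8 listed genes in each steer, with red points for the high-NFMP steers, blue points for the low-NFMP steers and a line at each group mean (n = 3 each). In each gene the 3 red points lie above the 3 blue points, and steer 3-3 is the lowest point.

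Of the 8 genes, 5 lay close together at a higher level, and the other 3 were spread below it. LOC112446128, LOC107132278, LOC112446130, LOC112442784 and LOC112443327 each had group means of between 100.1 and 115.4 normalized counts in the high-NFMP group, and these means differed by less than their SDs. LOC112442818, LOC112446509 and LOC112443041 had lower means in both groups, with 272, 200 and 182 counts over the 6 libraries. The thresholds of the study's methods, a fold change above 2 and an unadjusted p below 0.05, were applied to edgeR's test instead of the study's own analysis. All 8 genes were called higher in the high-NFMP group by them, where 2.53% of the 15039 tested rows were. By edgeR's quasi-likelihood test with an adjusted p below 0.05, 3 of the 8 were called higher, LOC112446130, LOC112442784 and LOC112443327, where 0.519% of all tested rows were; this number was 7 with DESeq2, 0 with limma and 0 with age as a term, where 291, 0 and 31 of all tested rows were called in either direction. Each high-NFMP steer was above each low-NFMP steer in all 8 genes and in 7.97% of all tested rows. The genes were chosen on this contrast, so nothing is read from these counts.

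Summed over the 8 genes, there were 839, 545 and 669 counts in high-NFMP steers 3-8, 10-8 and 10-9 and 253, 165 and 292 counts in low-NFMP steers 3-1, 3-3 and 10-16. These were 0.00515%, 0.0033% and 0.00398% of the counts of the library against 0.00147%, 0.000983% and 0.0017%. The order of the sum was 3-8, 10-9, 10-8, 10-16, 3-1 and 3-3 from the highest to the lowest steer. The normalized sum was 708.9 ± 127 in the high-NFMP and 229.9 ± 71.8 in the low-NFMP group (SD, n = 3 each), a ratio of 3.08. The lowest high-NFMP steer, 10-8 with 605.6, was 2.05 times as high as the highest low-NFMP steer, 10-16 with 294.8. Steers also differed within a group, from 605.6 to 850.2 in the high-NFMP group and from 152.7 to 294.8 in the low-NFMP group.

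The profiles of the 8 genes over the steers were alike. Over the 28 pairs of genes, Pearson's r of the log2 normalized counts over the 6 libraries lay between 0.93 and 0.99 with a median of 0.98, and Spearman's rho between 0.71 and 1.00 with a median of 0.94. The points of these correlations share the libraries, the difference between the groups on which the genes were chosen, and possibly reads. With the group means taken off, r lay between 0.61 and 0.98 with a median of 0.87, so the genes also moved together from steer to steer within the groups. The pair with the lowest r was LOC112443041 and LOC112446130, at 0.926 over the 6 libraries and 0.606 within the groups. Steer 3-8 had the highest normalized count in 7 of the 8 genes and steer 3-3 the lowest in all 8.

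The share of each gene in the summed count varied between libraries. Its mean was 16.3% in the high-NFMP and 19.5% in the low-NFMP group for LOC107132278, and 16.2% and 12.9% for LOC112446130. LOC112442784 held between 13.8% and 15.2% of the sum, and LOC112446509 held between 5.82% and 7.63%. LOC107132278 ranged from 14.9% to 21.2%, LOC112446128 from 14.7% to 18.5% and LOC112443327 from 11.5% to 15%. LOC112442818 ranged from 8.82% to 11.1% and LOC112443041 from 5.24% to 7.89%. For these 7 genes the exact Clopper-Pearson 95% intervals of the 6 libraries had a value in common. This cannot show that the shares were equal, because intervals were wide where sums were low, as from 15.2% to 28.2% for LOC107132278 in steer 3-3. The intervals cover counting error only, as PCR copies of a molecule were not told apart. LOC112446130 was the exception. It held 17.2% of the sum in steer 3-8 (interval 14.7% to 19.9%) and 9.49% in steer 3-1 (interval 6.17% to 13.8%), while in the other steers its share was closer to that of steer 3-8.

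**Figure D2:**
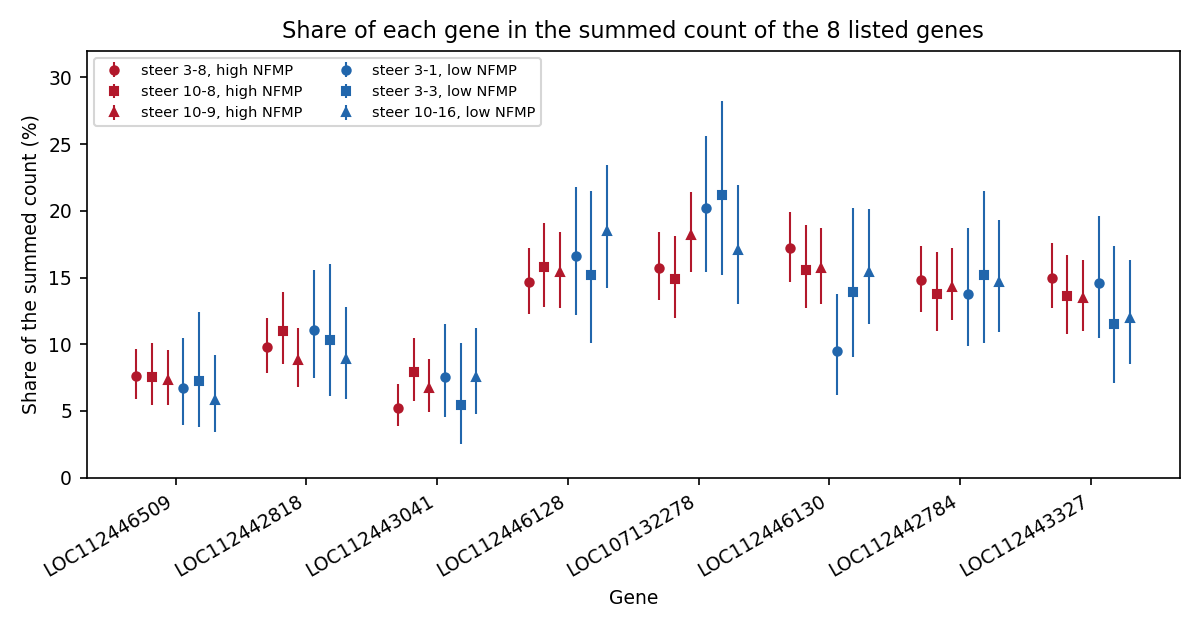
Share of each listed gene in the summed count of the 8 genes (%) in each steer, in red for high and in blue for low NFMP, with exact 95% binomial intervals as bars. The intervals of a gene have a value in common over the steers except for LOC112446130, which is lower in steer 3-1, at 9.49%, than in steer 3-8, at 17.2%.

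The 5 genes of the higher level, each with at least 370 counts in all, a limit chosen after the values were seen, were also compared within each library. Equal genes counted independently would give a variance equal to the mean. Choosing genes by their total count also narrows the spread between them, so a ratio near 1 cannot show here that genes are equal. The variance of the 5 counts over their mean was 0.579, 0.383 and 1.41 in high-NFMP steers 3-8, 10-8 and 10-9 and 2.58, 1.37 and 1.15 in low-NFMP steers 3-1, 3-3 and 10-16. The 5 counts ran from 123 to 144 in steer 3-8 and from 24 to 51 in steer 3-1. Over all 8 listed genes the ratio was 12.7, 4.79 and 9.9 in the high-NFMP and 4.37, 3.3 and 5.11 in the low-NFMP steers. Over the 13 U1-length genes with at least 370 counts, listed or not, the ratio was 0.533, 0.374 and 1.05 in the high-NFMP steers and 2.23, 9.11 and 1.08 in the low-NFMP steers. The value of 9.11 in steer 3-3 came with 1 gene, LOC112443337, which had 75 counts there, and was 1.56 without it. That gene was left out once its count was seen.

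The 16 U1-length genes outside the list were set beside the listed genes. The filter on low counts kept 12 of them and all 8 listed genes. Summed, the 16 genes had 1361, 744 and 957 counts in the high-NFMP steers and 360, 277 and 483 counts in the low-NFMP steers, and the normalized sum was 1055 ± 288 against 362.8 ± 117 (SD, n = 3 each), a ratio of 2.91. The median log2 fold change of the 12 tested genes was 1.63, with a range from 0.82 to 2.27, beside 1.61 for the listed genes and 0.02 for all tested rows. Of the 12, 11 were called higher at the unadjusted threshold and 2 at the adjusted p threshold of edgeR, LOC112443636 and LOC112447196. In all 12 the normalized count of each high-NFMP steer was above that of each low-NFMP steer. Of all tested rows, 2.53%, 0.519% and 7.97% met these rules. The other called genes were LOC112442795, LOC112442807, LOC112448627, LOC112446129, LOC112446125, LOC112443614, LOC112443339, LOC112443625 and LOC112449629. Of these, LOC112449629 had 27, 12 and 24 counts in the high-NFMP steers and 7, 6 and 9 in the low-NFMP steers. The filter kept it through the high-NFMP steers alone, so nothing is read from its direction. LOC112446125 and LOC112446129, which lie in the row with 3 listed genes, had log2 fold changes of 1.73 (SE 0.42) and 1.78 (SE 0.41), and LOC112442795 and LOC112442807, which overlap TEX14, had 1.5 (SE 0.37) and 1.33 (SE 0.35).

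LOC112443337 was the tested U1-length gene that was not called. It had 120, 74 and 94 counts in the high-NFMP steers and 42, 75 and 59 counts in the low-NFMP steers, a log2 fold change of 0.82 (SE 0.31). Its counts in the high-NFMP steers were like those of the listed genes of the higher level, and its count in steer 3-3 was above the 35 counts of LOC107132278, the highest listed gene there. Among the genes removed by the filter, LOC112444219 had 4, 6 and 5 counts against 5, 3 and 6, and LOC112446131 had 5, 3 and 8 counts against 0, 1 and 0. The groups overlapped in the former and not in the latter. Against the 12 tested genes outside the list, r of the listed genes had a median of 0.96 over the 6 libraries and of 0.83 within the groups, and 7 of 96 pairs had a within-group r below 0.

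The snRNA genes of other lengths are given by class, beside the 2.53% of all tested rows that were called higher. Classes of neighbouring lengths with at least 2 tested genes were formed after the values were seen, and are given without a test between classes. Of the 5 tested genes outside these classes, 2 were called higher. Their log2 fold changes ran from -0.65 to 3.25 with a median of 0.12, and the groups overlapped in the sum over all 54 genes outside the classes. Of 18 tested genes of 190 to 192 bases, 16 were called higher, with a median log2 fold change of 1.88. The summed normalized count of all 21 genes of these lengths was 2456 ± 855 against 669.9 ± 70.0 (SD, n = 3 each). LOC112442857, of 192 bases, had 3, 2 and 3 counts in the low-NFMP steers. The filter kept it through the high-NFMP steers alone, so nothing is read from its direction. LOC112446152, LOC112446153, LOC112448637 and LOC112443660, of 116, 117 or 133 bases, had fewer than 10 counts in some low-NFMP steers. The filter kept them only with the help of the high-NFMP steers. Of 4 tested genes of 116 or 117 bases, 4 were called higher, with a median of 2.85, and both genes of 141 bases were called, with a median of 2.21. At an adjusted p below 0.05 by edgeR, 13 genes of 190 to 192 bases, 4 of 116 or 117 and 2 of 141 were higher. By this rule 1 of the 5 genes outside the classes, 0 of those of 106 to 108 bases and 0.519% of all tested rows were higher. Of 16 tested genes of 106 to 108 bases, none was called higher by edgeR at the unadjusted threshold, and their median was -0.14. By the same rule 1 was called lower, where 1.36% of all tested rows were, so these counts were near the shares of all rows. The gene called lower, LOC112443690, had 6, 9 and 1 counts against 13, 25 and 12. The filter kept it through the low-NFMP steers alone, so nothing is read from its direction. The sum over all 173 genes of 106 to 108 bases was 961.7, 745.7 and 901.6 normalized counts in the high-NFMP steers and 799.0, 856.9 and 1112 in the low-NFMP steers, with overlapping groups. The median r of the listed genes was 0.92 with the genes of 190 to 192 bases and -0.09 with those of 106 to 108 bases. Within the groups these medians were 0.49 and 0.15, beside 0.87 among the listed genes. With the genes of 116 or 117 bases the median r was 0.83 over the 6 libraries and -0.21 within the groups, where 22 of 32 pairs had an r below 0. With those of 141 bases the medians were 0.95 and 0.63.

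**Figure D3:**
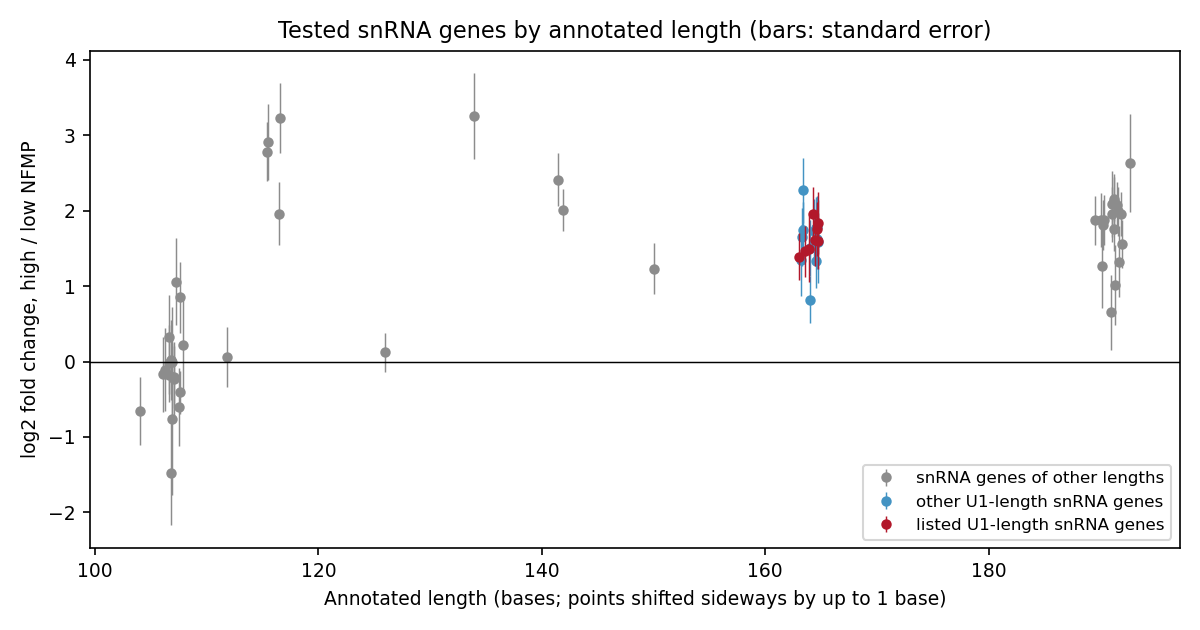
Log2 fold change (high over low NFMP, edgeR) of each of the 65 tested snRNA genes by its annotated length in bases, with the SE as bars; listed genes are red, other U1-length genes blue and genes of other lengths grey. The listed genes lie between 1.39 and 1.95, within the range of the other U1-length genes, while the genes of 106 to 108 bases lie on both sides of 0.

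The genes that contain or overlap a listed copy were not called higher. TEX14 had 1869, 1344 and 2226 counts in the high-NFMP steers and 2348, 2195 and 2184 counts in the low-NFMP steers, a log2 fold change of -0.21 (SE 0.19) with an adjusted p of 0.71 by edgeR. RAD51C had 12, 20 and 15 counts against 12, 31 and 16 counts, fewer than LOC112442818 within it had in the high-NFMP steers. NDUFAF2 had 82, 91 and 79 counts against 161, 130 and 115 counts, a log2 fold change of -0.57 (SE 0.26) with an adjusted p of 0.426 by edgeR. In NDUFAF2 the low-NFMP steers were higher without overlap, opposite to LOC112443041, and in TEX14 and RAD51C the groups overlapped. Each low-NFMP steer was above each high-NFMP steer in 9.16% of all tested rows, so nothing is read from this order in single genes. Of the tested genes directly beside a listed copy, tRNA and snRNA genes left aside, EAPP had a log2 fold change of -0.14 (SE 0.19) with each low-NFMP steer above each high-NFMP steer, HJV of 0.18 (SE 0.20) and MGC137055, after LOC112442784, of -0.67 (SE 0.63). The small nucleolar RNA gene LOC112442866, before LOC112442784, had 411, 342 and 602 counts against 400, 395 and 197 counts, a log2 fold change of 0.56 (SE 0.26) with an adjusted p of 0.435 by edgeR, and the groups overlapped. The sources used here do not give the strand setting of the counting, so reads of a copy and of a gene that overlaps it may not be told apart.

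For the genes that make U1 snRNA and its particle, 64 of 67 on 7 lists were found and tested. None was called higher by edgeR at the unadjusted threshold, where 2.53% of all tested rows were, and 1 was called lower, where 1.36% were. These counts were near the shares of all rows, and the median log2 fold change was -0.11. By edgeR, 5 of the 64 had an unadjusted p below 0.05, beside 11.5% of all tested rows, and none had an adjusted p below 0.05. Of these 5, LUC7L3, TIA1, INTS12 and INTS13 were lower and TOE1 was higher in the high-NFMP group. Among the 3 proteins that belong to the U1 particle, SNRNP70, which binds the RNA directly, had 835.4 ± 141 normalized counts in the high-NFMP and 821.0 ± 98.7 in the low-NFMP group (SD, n = 3 each). Its log2 fold change was 0.03 (SE 0.19), and those of SNRPA and SNRPC were 0.17 (SE 0.26) and -0.11 (SE 0.20). The 8 genes of the Sm ring had a median of 0.02, and SNRPD3, the most counted, had -0.03 (SE 0.18). The groups overlapped in SNRNP70, SNRPA, SNRPC and SNRPD3.

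Among the 5 genes of U1 accessory proteins, which help the particle choose 5′ splice sites, the median was -0.38. LUC7L3, the most counted, had 3175 ± 728 against 4428 ± 361 normalized counts (SD, n = 3 each), a log2 fold change of -0.48 (SE 0.20) with an adjusted p of 0.378 by edgeR. All 3 low-NFMP steers were above the high-NFMP steers in it. TIA1 had a log2 fold change of -0.61 (SE 0.26). The 11 genes of snRNA gene transcription, with SNAPc subunits among them, had a median of -0.13, and POU2F1, an activator of snRNA promoters, had 0.23 (SE 0.23). The 14 genes of Integrator had a median of -0.25. INTS12, an Integrator subunit, was the gene called lower, with 36, 30 and 15 counts in the high-NFMP steers and 51, 83 and 56 counts in the low-NFMP steers. Its log2 fold change was -1.10 (SE 0.40), with all 3 high-NFMP values below the low-NFMP values and an adjusted p of 0.303 by edgeR. INTS13 had -0.83 (SE 0.28), and INTS6, the most counted, had -0.39 (SE 0.23). The 19 genes of export, import and assembly had a median of -0.03, with CLNS1A, a chaperone of Sm proteins, at -0.03 (SE 0.21). The 4 genes of 3′ end trimming and decay had a median of 0.01, with the deadenylase gene PARN, the most counted, at -0.27 (SE 0.26). TOE1, which trims the 3′ ends of snRNAs, had 122, 116 and 134 counts in the high-NFMP steers and 75, 85 and 101 counts in the low-NFMP steers. Its log2 fold change was 0.62 (SE 0.26) with an adjusted p of 0.379 by edgeR. It was the 1 gene of the 64 in which each high-NFMP steer was above each low-NFMP steer, as in 7.97% of all tested rows. The opposite order, each low-NFMP steer above each high-NFMP steer, held in 6 of the 64, LUC7L3, INTS12, INTS13, INTS10, SNAPC5 and GEMIN7, and in 9.16% of all tested rows.

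Of 4 other measures set beside the sum of the listed genes, 1 separated the groups. The 13 protein genes of the mitochondrial genome held 18.4%, 19.8% and 16.4% of the counts in high-NFMP steers 3-8, 10-8 and 10-9 and 15%, 12.5% and 15.1% in low-NFMP steers 3-1, 3-3 and 10-16, without overlap, and steer 3-3 was the lowest here too. RN18S1, the 18S ribosomal RNA, held 4.72%, 4.31% and 2.80% against 6.46%, 4.33% and 4.64%, with overlap. The 344 genes of small nucleolar RNAs, which are short and mostly without a poly(A) tail as well, summed to 5316, 3523 and 5554 normalized counts against 4296, 4572 and 3965, with overlap. Of 49 tested genes of this kind, 7 were called higher and 1 lower at the unadjusted threshold, where 2.53% and 1.36% of all tested rows were, and their median log2 fold change was 0.41, beside 1.61 for the listed genes and 0.02 for all tested rows. RN7SL1, the RNA of the signal recognition particle, had 78, 73 and 50 counts against 101, 64 and 64, with overlap. The part of the mitochondrial share and of the small nucleolar RNAs in the result was not tested.

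Steer 3-8, with the highest sum of the listed genes, also had the highest sum of the 5 adipocyte markers, 8398 normalized counts, beside 3395 and 2739 in steers 10-8 and 10-9 and 3011, 3689 and 2497 in steers 3-1, 3-3 and 10-16. FABP4 was the most abundant of them, none was at 0 and none was called by edgeR at either threshold. The groups overlapped in this sum, and the part of fat cells in the result was not tested. The ratio of the high-NFMP to the low-NFMP group was 1.58 for the adipocyte markers and 1.00 for them without steer 3-8. It was 1.19 for the 4 fibroblast markers (most abundant DCN), 1.05 for the 3 endothelial markers (PECAM1) and 1.3 for the 4 markers of macrophages and lymphocytes (PTPRC). The 3 red blood cell markers, with HBA1 the most abundant, summed to 37.5, 6.67 and 15 against 3.83, 2.78 and 39.4 normalized counts. The groups overlapped in the blood markers.

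Outside snRNA genes, the 5 tested rows whose log2 normalized counts were most like the log2 sum of the listed genes over the 6 libraries were QRICH1 (r = 0.991), SLC25A33 (0.990), TALDO1 (0.990), SLC15A4 (0.988) and LOC788425 (0.988). They code for proteins, among them a mitochondrial carrier of pyrimidine nucleotides (SLC25A33), the transaldolase of the pentose phosphate pathway (TALDO1) and a lysosomal transporter of histidine and peptides (SLC15A4). Their log2 fold changes were smaller than those of the listed genes, at 0.38 (SE 0.18), 0.73 (SE 0.23), 0.37 (SE 0.18), 0.72 (SE 0.20) and 1.23 (SE 0.48). SLC25A33 had 319, 224 and 269 counts in the high-NFMP steers and 190, 147 and 189 counts in the low-NFMP steers. A total of 75 tested rows had an r above 0.95, the listed genes among them, and 7 of the 20 rows most like the sum, other than its own members, were snRNA genes, 4 of them of the U1 length.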

How the data were processed

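RNA sequencing counts of muscle from 6 steers, 3 per group, were analysed. The authors deposited raw read counts per gene symbol, without normalization. The submitters' processing notes name Bowtie2 and bedtools, while the methods of the paper name Tophat2 and HTSeq in one place and Bowtie2 in another. The sources differ on the program behind the counts, and the strand setting is not stated in them.

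The analysis used edgeR 4.0.16 under R 4.3.3. The filter of edgeR (minimum count 10, minimum total 15) kept 15039 of 23015 rows, TMM factors were between 0.9155 and 1.083, and the groups were compared with the robust quasi-likelihood test and Benjamini-Hochberg adjustment over all tested rows. Standard errors were derived from the log2 fold change and the F statistic. Log2 fold changes are high-NFMP over low-NFMP. The scripts were tested on simulated data. Correlations used log2 normalized counts and are given without p. Members and gene lists were chosen with earlier results of these data known.

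Gene kinds, lengths and neighbours came from the RefSeq table of ARS-UCD2.0, which is not the assembly the paper names, so no coordinates are given. The genes named are the 8 listed copies, other U1-length snRNA genes with at least 10 counts in all, called or most counted members of the gene lists, the 5 rows most like the sum, and genes that overlap a copy. SNRPA, SNRPC, TIA1, INTS10, INTS13, SNAPC5, GEMIN7, TOE1, neighbours of the copies and the other small RNA genes were picked once their values were seen. RN7SK was not analysed here.

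Alternatives comprised RLE factors, library totals, no filter, a minimum of 10 counts per library, limma 3.58.1 on quantile-normalized log2(count + 1), DESeq2 1.42.0, a term for age or for the first label number, each steer left out, and other sums.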

Additional observations from a re-analysis of the deposited data

How the results depend on the processing

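The 8 listed genes were called higher at the unadjusted threshold under each alternative fitted over all rows, except with at least 10 counts in every library, where LOC112443041 was removed and 7 were tested. Their log2 fold changes lay between 1.17 and 2.40 over these alternatives, and that of the sum, 1.63 in edgeR, lay between 1.58 and 1.76 under 6 alternatives with all steers. Other sums gave 1.68 without the most counted gene, 1.58 over all U1-length genes and 1.54 over those outside the list. Without each steer in turn the sum lay between 1.40 and 1.87. The sum gave 2.14 among the steers whose label starts with 3 and 1.11 among those whose label starts with 10. Both values are differences of mean log2 normalized sums and not edgeR fits, and single genes were not fitted. Each time 1 group is a single steer (3-8, the highest of its group, and 10-16, the highest of its own). This split and the sum over U1-length genes outside the list were chosen after seeing the data. The number at an adjusted p below 0.05 was 3 of 8 in edgeR, 7 without a filter, 4 of 7 with at least 10 counts in every library, 7 with DESeq2, 1 with library totals, 1 with the first label number as a term, 0 with age as a term in edgeR and 0 with limma, although all listed genes that were tested passed the unadjusted rule with each. Without each steer in turn it was 0 to 1 in edgeR. Over all rows, 586 were called at the unadjusted rule, 969 without a filter and 364 with at least 10 counts in every library. At an adjusted p below 0.05 there were 103 rows in edgeR, 240 without a filter, 90 with at least 10 counts in every library, 291 with DESeq2, 69 with library totals, 90 with the first label number as a term, 31 with age as a term and 0 with limma, which called 602 at the unadjusted rule. Without each steer in turn there were 630 to 744 at the unadjusted rule and 28 to 82 at the adjusted one. Of the called rows 65% were higher, 56.0% with library totals, 56.1% with limma, 57.3% with age as a term, 72.2% with the first label number as a term, and 49.2% (without steer 3-8) to 73.6% (without 3-3) with each steer left out. The cause of these changes was not tested. A fit without a steer has fewer samples. Counts as low as 9 limit the precision of single genes.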
